A study of Mus musculus with 4 samples.

Results

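Albumin, transthyretin and 8 further plasma carrier proteins that hepatocytes secrete were followed at the RNA level in mouse liver. The 10 genes (*Alb*, *Ttr*, *Trf*, *Ahsg*, *Fetub*, *Rbp4*, *Hpx*, *Gc*, *Afm* and *Ambp*) were taken by gene symbol from the 35739 genes of the deposited abundance table. Each genotype had 2 livers with 1 library each, numbered 2 and 3 for WT and 1 and 3 for the *Usp21* knockout (KO). *Usp21* encodes a ubiquitin-specific protease, and the KO allele is constitutive: exons 3 and 4 had been excised by Cre in all tissues, which leads to a stop codon in exon 5. Per the study's methods, WT and KO mice were littermates aged 10 to 11 weeks on a normal diet, from crosses of C57BL/6 mice with mice of mixed B6 and 129/Sv background, and the ES cells were 129/Sv-derived, so that 129/Sv sequence around the locus and the deletion itself cannot be told apart. *Usp21* itself was at 4.07 and 6.29 TPM in WT against 1.64 and 2.93 TPM in KO, the KO livers lower (adjusted p = 0.464 from limma). Levels are given in TPM, a relative transcript abundance corrected for length and library size, which allows levels of different genes to be compared.

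Plasma carrier proteins keep poorly soluble or reactive cargo in solution. Albumin carries fatty acids, bilirubin and many drugs and sets the oncotic pressure of plasma, transthyretin and retinol-binding protein travel together with thyroid hormone and vitamin A, and transferrin and hemopexin bind iron and heme. The adult liver makes most of the plasma pool of these proteins, and albumin and transthyretin are known to decline in inflammation, while hemopexin is known to increase.

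All 10 genes were detected in all 4 libraries and were above the threshold for testing, a mean of 1 TPM. None of them passed the test between genotypes in limma (adjusted p under 0.05 for 0 of 10 genes and unadjusted p under 0.05 for 0 of 10), compared with 0.0835% and 10.5% of the 9581 genes tested. No member differed 2-fold or more, as 3.68% of tested genes did, and the genotypes did not overlap for 3 members (*Alb*, *Ahsg* and *Rbp4*, lower in KO), as for 45.3% of tested genes. Averaged over the 4 libraries, the levels spanned 373.5-fold from *Alb* to *Afm*, while the log2 fold changes between KO and WT lay between -0.35 (*Alb*) and 0.09 (*Ambp*). For 9 of the 10 genes the difference was smaller than its own standard error, which was the case for 49.8% of all tested genes. The 95% interval of the difference lay within 2-fold in either direction for 9 of the 10 genes, all but *Alb*, compared with 56.4% of all tested genes. A p above the threshold does not show that the genotypes were equal, and these intervals give what 2 libraries per genotype could resolve.

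**Figure D1:**
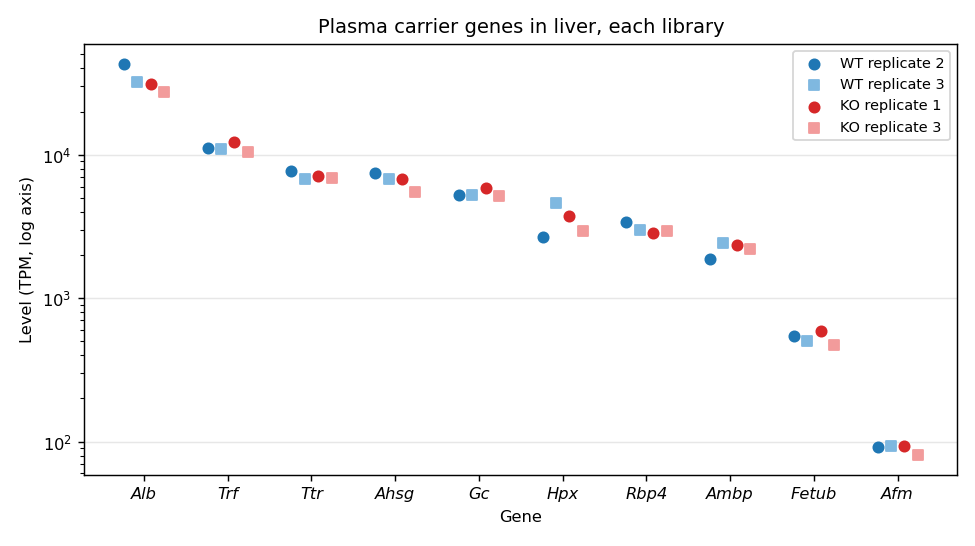
Level of each of the 10 genes in each library, in TPM on a log axis, with genes ordered by their mean. Each point is 1 liver (blue WT, red KO), and the 4 points of a gene lie close together compared with the 373.5-fold range between *Alb* and *Afm*.

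Some properties of the libraries bear on these values. Hepatocyte markers were abundant in every library (11 markers, summed level 41088 to 52837 TPM), with *Cyp2e1* and *Apoa2* well above 1000 TPM. Red blood cell markers summed to 719 to 911 TPM, Kupffer cell and macrophage markers to 146 to 366 TPM, and lymphocyte markers to 2.77 to 4.73 TPM. By sign of the log2 fold change, 9 of 9 tested endothelial, 8 of 8 stellate cell and fibroblast and 2 of 2 cholangiocyte markers were above 0 in KO, and 10 of 12 Kupffer cell and macrophage markers were below 0, where 66.7% of all tested genes were above 0. After scaling to an equal upper quartile these counts were 8 of 9, 7 of 8, 2 of 2 and 10 of 12, where 54% of all tested genes were above 0. None of these markers had an adjusted p under 0.05 in limma (unadjusted p under 0.05 in 1 endothelial and 1 cholangiocyte marker), and their part in the values of the 10 genes was not tested. The Kupffer cell and macrophage sum was lowest in KO replicate 1 (146 TPM) and highest in KO replicate 3 (366 TPM). The median log2 fold change of this list was -0.24 and became 0.35 without KO replicate 1 and -0.86 without KO replicate 3. Of 11 exocrine pancreas and gut markers, 8 were at 0 in all libraries. WT replicate 3 stood apart in acute phase genes, with *Saa1* at 1089 TPM against 47.9 to 161.6 TPM in the other libraries and *Lcn2* at 67.1 TPM against 2.67 to 4.59 TPM. The same library had the lowest share of TPM from mitochondrially encoded genes (11.6%, against 15.5% to 16.5%). In bulk liver, fewer hepatocytes and less RNA per hepatocyte cannot be told apart.

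*Alb* (ENSMUSG00000029368) lies on the forward strand of chromosome 5, from 90460897 to 90476602 (GENCODE M21, build GRCm38), and its main transcript has 15 exons and 2034 bases. It belongs to a gene family with *Afm*, which lies on the same strand (90518932 to 90553543), and *Gc*, which lies on the reverse strand (89417522 to 89457898). The fetal member *Afp* sits between *Alb* and *Afm*. The promoter of *Alb* is shown because it holds 2 matches to the consensus of the PAR bZIP transcription factors, among them DBP. Whether DBP binds at these 2 places was not measured. Only exact matches were searched for, so a site that differs by a letter is not marked in the sequence. The window runs from 250 bases before to 50 bases after the RefSeq start (build GRCm38.p6), and capitals mark TTATGTAA or its reverse complement TTACATAA.
*Alb* promoter, chr5:90460620-90460919, forward strand: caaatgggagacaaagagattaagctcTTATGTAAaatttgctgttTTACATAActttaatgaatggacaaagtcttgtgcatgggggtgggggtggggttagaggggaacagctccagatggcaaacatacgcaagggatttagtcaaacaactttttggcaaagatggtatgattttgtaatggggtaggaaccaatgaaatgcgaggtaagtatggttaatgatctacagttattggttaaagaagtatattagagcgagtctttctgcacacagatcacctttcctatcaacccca

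RefSeq windows of 8 of the 10 genes were searched, 10 windows in all, without *Trf* and *Ttr*. Member windows on chromosome 18, where *Ttr* lies, were left out of the search. TTATGTAA, searched on both strands, occurred in 1 of the 10 windows, that of *Alb*, at positions -223 and -204 from the start, and in 0.938% of 32851 mouse promoter windows of the same length. A TATA box (TATAAA, also searched on both strands) stood about 30 bases before the start in windows of *Afm*, *Fetub* and *Rbp4*, and occurred anywhere in 13.6% of all windows. These motifs were picked with the promoter sequences in view, and a match describes letters only.

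Within the albumin family, *Alb* was by far the most abundant member. It measured 43181 and 32024 TPM in the WT livers against 31006 and 27475 TPM in the KO livers, which is 37603 ± 7889 and 29241 ± 2497 TPM (SD, n = 2 per genotype). The KO livers were lower than either WT liver, although WT replicate 3 and KO replicate 1 lay close together, and 10.9% of all tested genes had KO livers lower in this way. The log2 fold change was -0.35 (standard error 0.32, 95% interval -1.15 to 0.46, limma adjusted p = 0.693). The value depended on which WT liver was included: -0.13 with WT replicate 2 left out and -0.57 with WT replicate 3 left out. By level, *Alb* had rank 1 among all genes in WT replicate 2, rank 3 in WT replicate 3 and KO replicate 1, and rank 4 in KO replicate 3.

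*Gc* encodes the vitamin D-binding protein, which also sequesters actin released from damaged cells. It measured 5248 and 5261 TPM in the WT livers, values that nearly coincided, against 5850 and 5170 TPM in the KO livers, on either side of them. The log2 fold change was 0.07 (standard error 0.22, 95% interval -0.48 to 0.62, adjusted p = 0.922 from limma). *Afm* encodes afamin, a vitamin E-binding glycoprotein. It was the lowest of the 10 genes, at 91.9 and 92.9 TPM in WT against 92.7 and 80.4 TPM in KO. KO replicate 1 was inside the narrow WT range and KO replicate 3 under it, a log2 fold change of -0.10 (standard error 0.17, 95% interval -0.51 to 0.32, adjusted p = 0.842 from limma). *Afp*, whose product carries fatty acids before birth and is normally silenced in adult liver, was at 0.111 to 0.428 TPM, and its groups overlapped.

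Transthyretin carries thyroxine and, by binding the small retinol-binding protein RBP4, keeps it from being lost through the kidney. *Ttr* (ENSMUSG00000061808, chromosome 18) measured 7733 and 6787 TPM in the WT livers against 7134 and 6935 TPM in the KO livers, with both KO livers inside the WT range. Its log2 fold change was -0.043 (standard error 0.23, 95% interval -0.62 to 0.53, adjusted p = 0.955 from limma). *Rbp4* (ENSMUSG00000024990, chromosome 19, 38116629 to 38125281, reverse strand) measured 3378 and 2993 TPM in WT against 2851 and 2952 TPM in KO. The groups did not overlap, but KO replicate 3 was within a few percent of WT replicate 3. The log2 fold change of *Rbp4* was -0.13 (standard error 0.20, 95% interval -0.64 to 0.38, adjusted p = 0.821 from limma). The ratio of *Ttr* to *Rbp4*, taken within each library and so free of scaling, was 2.29 and 2.27 in WT and 2.50 and 2.35 in KO.

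Among the iron and heme carriers, transferrin was the second most abundant of the 10 genes. *Trf* (ENSMUSG00000032554, chromosome 9, 103204001 to 103230444, reverse strand) measured 11190 and 10975 TPM in the WT livers against 12287 and 10402 TPM in the KO livers. The KO livers enclosed the WT livers, and the log2 fold change was 0.029 (standard error 0.25, 95% interval -0.60 to 0.66, adjusted p = 0.972 from limma). Of the 31-base stretches of its annotated transcripts, 63.8% also occur in transcripts of another gene, while for the other 9 genes this share was 0%. The other gene is chiefly *Gm20425*, which overlaps *Trf* on the same strand (103190208 to 103230307) and has no entry among the deposited TPM values. Whether reads were divided between such annotations was not tested.

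Hemopexin, which binds free heme and delivers it to hepatocytes, was the most variable member. *Hpx* (ENSMUSG00000030895, chromosome 7, 105591613 to 105600137, reverse strand) measured 2680 and 4614 TPM in the WT livers against 3727 and 2930 TPM in the KO livers. Both KO livers lay between the WT livers, which differed 1.72-fold from each other, the widest gap within a genotype for any of the 10 genes. The log2 fold change was -0.09 (standard error 0.32, 95% interval -0.90 to 0.72, adjusted p = 0.928 from limma), and became 0.30 when WT replicate 3 was left out and -0.48 when WT replicate 2 was. WT replicate 3, the library with the highest *Hpx*, was also the library with the highest *Saa1* and *Lcn2*, and the highest haptoglobin (*Hp*), which binds free hemoglobin. The part of the acute phase genes in the *Hpx* values was not tested.

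The fetuins are cystatin-type plasma glycoproteins. Fetuin-A, encoded by *Ahsg*, keeps calcium phosphate in solution and can inhibit the insulin receptor. *Ahsg* (ENSMUSG00000022868, chromosome 16, 22891277 to 22899449, forward strand) measured 7497 and 6802 TPM in the WT livers against 6738 and 5480 TPM in the KO livers. Both KO livers were below both WT livers, KO replicate 1 only slightly so, and the log2 fold change was -0.23 (standard error 0.24, 95% interval -0.84 to 0.37, adjusted p = 0.725 from limma). Without KO replicate 3 the log2 fold change was -0.08. *Fetub* (ENSMUSG00000022871, 22918334 to 22939778, forward strand) encodes fetuin-B, an inhibitor of the protease that hardens the egg coat, and starts 18885 bp after the end of *Ahsg*. It measured 548 and 503 TPM in WT against 592 and 471 TPM in KO, so that the KO livers enclosed the WT livers. This gave a log2 fold change of 0.0079 (standard error 0.19, 95% interval -0.47 to 0.49, adjusted p = 0.988 from limma), the smallest of the 10.

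The next genes of this chromosome 16 cluster are relatives of the fetuins. *Hrg*, encoding histidine-rich glycoprotein, measured 569.9 and 565.6 TPM in WT against 457 and 463 TPM in KO (log2 fold change -0.30, adjusted p = 0.522 from limma). *Kng1*, which encodes the kininogen from which bradykinin is released, measured 875 and 901 TPM in WT against 1042 and 775 TPM in KO, with overlapping groups. *Ahsg* exceeded its neighbour *Fetub* 11.4-fold to 13.7-fold in the 4 libraries.

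*Ambp* (ENSMUSG00000028356, chromosome 4, 63143275 to 63154799, reverse strand) encodes a precursor that is cut into alpha-1-microglobulin, a heme-binding lipocalin, and bikunin, the light chain of the inter-alpha-inhibitors. It measured 1868 and 2431 TPM in the WT livers against 2350 and 2189 TPM in the KO livers, with both KO livers inside the WT range. Its log2 fold change was 0.09 (standard error 0.22, 95% interval -0.46 to 0.64, adjusted p = 0.889 from limma), and became -0.10 when WT replicate 2 was left out and 0.28 when WT replicate 3 was. Of 7 listed genes of the inter-alpha-inhibitor family and its links, 5 were tested, with 2 above and 3 below 0 and adjusted p under 0.05 in 0 (limma, unadjusted p under 0.05 in 0 as well). The heavy chain gene *Itih2* measured 283 and 256 TPM in WT against 430.2 and 264 TPM in KO. Each listed *Itih* gene was well below *Ambp*. The ratio of *Ambp* to *Itih4*, the most abundant *Itih* gene listed, was 3.82 and 2.92 in WT and 3.46 and 4.13 in KO. Whether the product of each listed *Itih* gene is joined to bikunin was not examined.

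**Figure D2:**
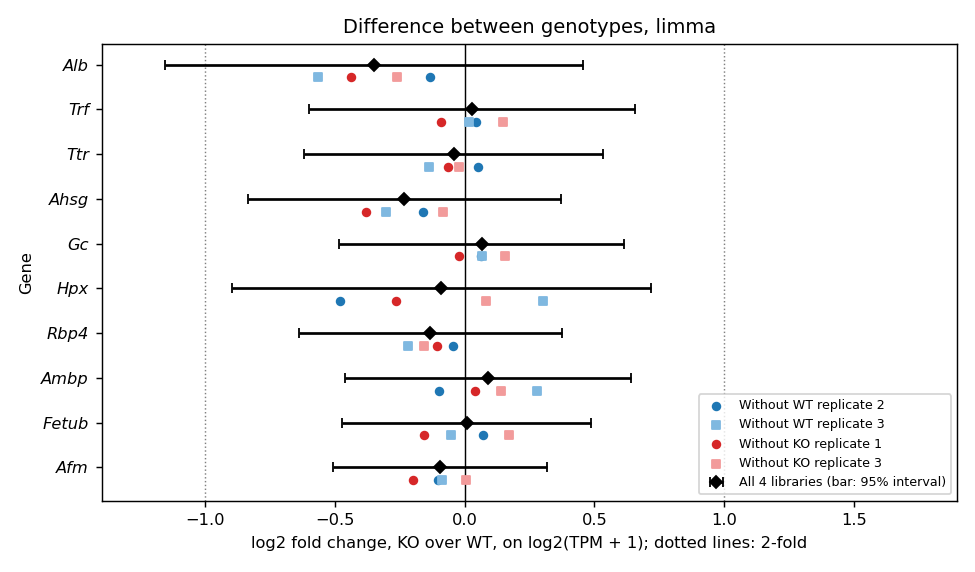
log2 fold change (KO over WT, on log2(TPM + 1), horizontal axis) of the 10 genes, with the 95% interval from limma as bars and the value with each library left out as coloured points. Each interval includes 0, and that of *Alb* is the 1 interval that reaches past a 2-fold difference, with its lower end at -1.15.

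The order of the genes by level was nearly the same in every library. *Alb* exceeded *Trf* 3.86-fold and 2.92-fold in WT and 2.52-fold and 2.64-fold in KO. *Trf* was above *Ttr* in all 4 libraries, *Gc* above *Hpx*, *Rbp4* above *Ambp*, and *Ambp* above *Fetub*, which was itself 5.42-fold to 6.38-fold above *Afm*. Neighbours could not be ordered beyond the spread in 2 places. *Ttr* exceeded *Ahsg* in 3 of 4 libraries, with a ratio of 0.998 in WT replicate 3, and *Hpx* exceeded *Rbp4* in 2 of 4 libraries.

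As a share of all TPM in a library, *Alb* took 4.33% and 3.21% in WT and 3.11% and 2.75% in KO. *Trf* took 1.12% and 1.10% in WT and 1.23% and 1.04% in KO. The share of *Ttr* was 0.775% and 0.680% in WT and 0.715% and 0.695% in KO, and that of *Ahsg* was 0.751% and 0.682% in WT and 0.675% and 0.549% in KO. *Gc* held 0.526% and 0.527% in WT and 0.586% and 0.518% in KO. *Hpx* held 0.268% and 0.462% in WT and 0.374% and 0.294% in KO, which repeats the wide gap between the WT livers. The shares of *Rbp4* lay between 0.286% and 0.338%, those of *Ambp* between 0.187% and 0.244%, those of *Fetub* between 0.0472% and 0.0593%, and those of *Afm* between 0.00806% and 0.00931%.

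Together the 10 genes held 8.36% and 7.26% of the TPM in the WT libraries and 7.28% and 6.42% in the KO libraries, or 7.81% ± 0.77 and 6.85% ± 0.61 (SD, n = 2 per genotype). WT replicate 3 lay just below KO replicate 1, so the genotypes overlapped. The difference of -0.96 percentage points had p = 0.667 in an exact two-sided permutation test over the libraries, which cannot give a p below 0.333 with 2 against 2. Leaving out WT replicate 2 gave -0.41 and leaving out WT replicate 3 gave -1.51. *Alb* alone made up 51.8% and 44.2% of this sum in WT and 42.7% and 42.9% in KO.

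**Figure D3:**
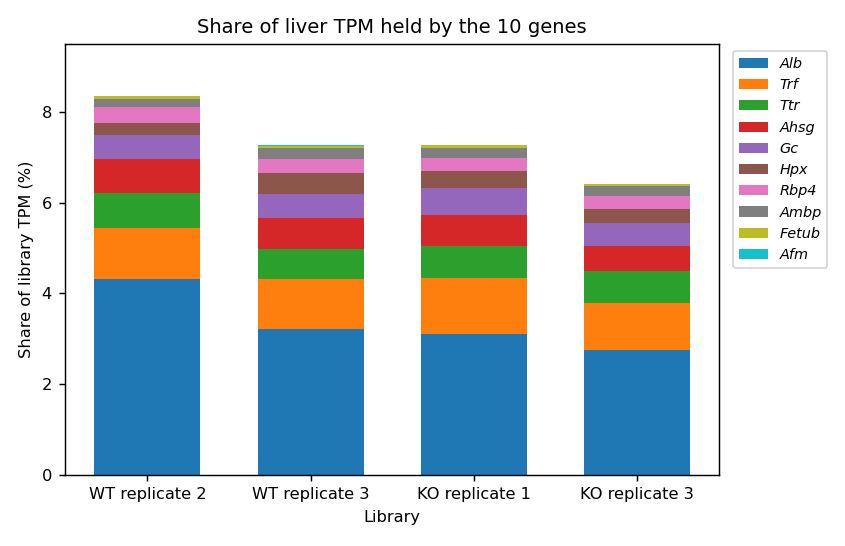
Share of each library's TPM (percent, vertical axis) held by the 10 genes, stacked by gene, for the 2 WT and 2 KO livers. The totals run from 8.36% in WT replicate 2 to 6.42% in KO replicate 3, and the blue *Alb* segment, from 4.33% to 2.75%, accounts for most of the difference in height.

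Set beside all tested genes, the 10 genes had a median log2 fold change of -0.07 (4 above and 6 below 0), compared with 0.15 for all tested genes, of which 66.7% were above and 33.3% below 0. The median of the 10 genes became 0.045 when KO replicate 3 was left out and -0.13 when KO replicate 1 was. After scaling to an equal upper quartile the median of all tested genes was 0.04, with 54% above 0, and all 10 genes were below 0, with a median of -0.20. The sign of *Trf*, *Fetub*, *Gc* and *Ambp* thus depended on the scaling. In size, the median difference of the 10 genes was 0.09 on the log2 scale, compared with 0.26 for all tested genes and 0.20 for the 102 tested genes that averaged 1000 TPM or more. The median gap between the livers of a genotype was 0.16 in WT and 0.19 in KO for the 10 genes, and 0.23 and 0.25 for those 102 genes. This is a description, since the 10 genes were not chosen at random.

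**Figure D4:**
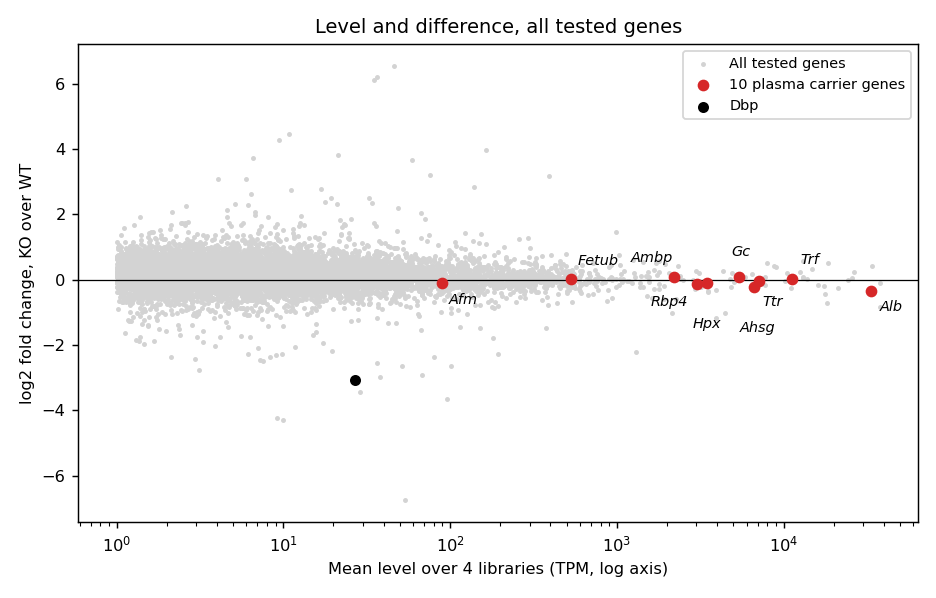
log2 fold change (KO over WT, vertical axis) against the mean level over the 4 libraries (TPM, log axis) of 9581 tested genes in grey, the 10 plasma carrier genes in red and *Dbp* in black. Most red points lie at the abundant end, and all lie between -0.35 and 0.09, while *Dbp* lies at -3.08.

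Of 21 other carrier and binding proteins of plasma, 18 were tested, with 4 above and 14 below 0 and a median log2 fold change of -0.25. In limma 0 of them had an adjusted p under 0.05 and 3 an unadjusted p under 0.05, a share to be read against 10.5% of all tested genes. They were *Apom*, the carrier of sphingosine 1-phosphate on lipoproteins, *Orm3*, an orosomucoid, and *Igfbp1*, a binding protein of insulin-like growth factors. *Apom* measured 330 and 283 TPM in WT against 171 and 213 TPM in KO (log2 fold change -0.68, adjusted p = 0.464 from limma). *Igfbp1* measured 6.28 and 18.4 TPM in WT against 21.5 and 42.3 TPM in KO (log2 fold change 1.39, adjusted p = 0.472 from limma). Gene family relatives of the members, such as lipocalins, cystatin-type proteins and *Afp*, gave 11 tested of 15, with 3 above and 8 below 0 (1 and 10 with upper quartile scaling) and a median of -0.22, which became -0.019 when WT replicate 3 was left out and -0.30 when WT replicate 2 was. None had an adjusted p under 0.05 in limma, and the 3 with an unadjusted p under 0.05 were *Orm3* and *Apom* again and *Ptgds*, a lipocalin that makes prostaglandin D2, which measured 0.642 and 0.951 TPM in WT against 2.42 and 2.77 TPM in KO.

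The receptors and uptake proteins of these carriers comprised 15 genes, of which 11 were tested, with 6 above and 5 below 0 (4 and 7 with upper quartile scaling). None had an adjusted p under 0.05 in limma, and 1 had an unadjusted p under 0.05: the insulin receptor gene *Insr*, whose product fetuin-A can inhibit, at 4.73 and 5.60 TPM in WT against 10.2 and 8.56 TPM in KO. As a share, 1 of 11 is near the 10.5% of all tested genes. *Lrp1*, which takes up the hemopexin-heme complex, measured 72.9 and 84.0 TPM in WT against 127.1 and 94.9 TPM in KO. *Stra6l*, the receptor for RBP4 in liver, measured 25.4 and 23.1 TPM in WT against 42.7 and 30.4 TPM in KO. For both genes the KO livers were above the WT livers, as for 34.4% of all tested genes, and neither had an unadjusted p under 0.05. *Tfr2*, a sensor of iron-loaded transferrin, measured 89.8 and 99.1 TPM in WT against 108 and 90.6 TPM in KO, with overlapping groups.

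In the list of positive acute phase genes, which includes *Hp* and whose members are known to rise when *Alb* and *Ttr* decline, 11 of 24 genes were above and 13 below 0 (8 and 16 with upper quartile scaling), with a median of -0.11. This sign rested on WT replicate 3, the library that stood apart in these genes: the median became 0.22 when it was left out and -0.48 when WT replicate 2 was, and -0.016 when KO replicate 3 was. None had an adjusted p under 0.05 in limma and 3 had an unadjusted p under 0.05: *Apcs* (serum amyloid P, log2 fold change 1.43), *Orm3* (-1.45) and the protease inhibitor gene *Serpina3n* (-0.79), a share near the 10.5% of all tested genes. *Hp* measured 2109 and 3416 TPM in WT against 1724 and 1798 TPM in KO (log2 fold change -0.61, adjusted p = 0.496 from limma).

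Transcription factors that bind promoters of plasma protein genes were followed as a list of 18, all tested, with 11 above and 7 below 0. Of these, 6 had an unadjusted p under 0.05 (*Dbp*, *Tef*, *Hlf*, *Nfil3*, *Hnf4a* and *Onecut1*) and 1, *Dbp*, an adjusted p under 0.05 (limma), against 10.5% and 0.0835% of all tested genes. The list was chosen with earlier results of these data known, so this count cannot show an excess among such factors. *Dbp* measured 56.8 and 41.3 TPM in the WT livers against 4.73 and 4.97 TPM in the KO livers, and *Tef* and *Hlf*, the other PAR bZIP factors, were also lower in each KO liver than in either WT liver. With any 1 library left out, 0 of all tested genes had an adjusted p under 0.05 in limma, *Dbp* included. *Tef* had a log2 fold change of -1.06 (adjusted p = 0.402 from limma) and *Hlf* of -0.62 (adjusted p = 0.464 from limma). *Nfil3*, a repressor at PAR bZIP sites, measured 3.86 and 8.13 TPM in WT against 17.0 and 24.5 TPM in KO (log2 fold change 1.69, adjusted p = 0.436 from limma). The PAR bZIP genes and *Nfil3* are clock output genes. The study's methods give no hour of liver collection, and the part of the hour in these values was not tested. Among the hepatocyte factors, *Hnf4a* measured 112 and 105 TPM in WT against 171 and 155 TPM in KO (log2 fold change 0.59, adjusted p = 0.464 from limma). The genotypes overlapped for *Cebpa* (log2 fold change -0.0062). *Alb*, whose promoter window holds the 2 TTATGTAA matches shown above, differed by -0.35 in the same livers. Whether binding at these matches changed was not measured.

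**Figure D5:**
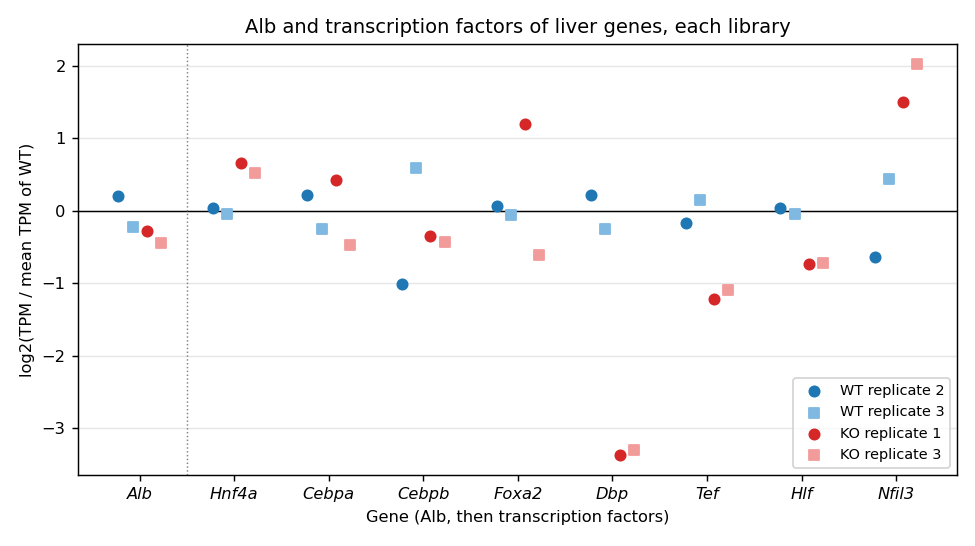
Level of *Alb* and of 8 transcription factor genes in each library relative to the mean of the WT libraries, as log2(TPM / mean TPM of WT), with blue for WT and red for KO. *Dbp*, *Tef* and *Hlf* are lower and *Nfil3* and *Hnf4a* higher in both KO livers, while the *Alb* points of the KO livers lie nearer to those of WT.

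A second deposited table, which holds counts from alignments to mm10 scaled to library size, held almost none of the reads of these genes. Reads were recovered from it by taking the smallest value above 0 in each library as 1 read. The totals came to between 102898 and 148164 recovered reads per library. Of these, the 10 genes together received 14 and 10 reads in WT and 10 and 4 reads in KO. *Alb*, among the most abundant genes by TPM, had 9 and 6 reads in WT and 2 and 1 reads in KO, and *Fetub*, *Afm* and *Ambp* were at 0 in all 4 libraries. The upper limit for a gene without reads is 3 reads, which corresponds to 20.0 to 27.7 CPM (counts per gene scaled to library size) and covers counting error only. Genes annotated on the opposite strand held more reads there. *Ahsg* had 1 and 2 reads in WT and 3 and 0 reads in KO, while *Gm30505*, an antisense gene that overlaps it, had 2330 and 1316 reads in WT and 1721 and 1295 reads in KO. *Afm* was at 0, while the overlapping *Gm42109* had 18 to 43 reads. Over the 89 nuclear genes that averaged 1000 TPM or more, the genes themselves held 35 to 70 reads per library, and 22 opposite-strand genes that overlap 21 of them held 16098 to 25132 reads. Whether the kit keeps the strand, and with which setting reads were counted, was not given, so reads and fold changes of the 10 genes in this table cannot be read as levels of their mRNA. Of the 10 genes, 7 could be fitted there, with an adjusted p under 0.05 for 0 of them in limma, edgeR and DESeq2. *Alb* had an unadjusted p under 0.05 in limma and in edgeR's quasi-likelihood test, with a log2 fold change of -2.33 in edgeR (adjusted p = 0.821 with Benjamini-Hochberg adjustment).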

How the data were processed

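Liver RNA of 2 WT and 2 *Usp21* KO mice was compared, with samples and table columns assigned by their labels (4 columns, of log2 CPM, were not used). The authors deposited TPM per gene from Salmon and the same values as log2(TPM + 1). They also deposited reads counted with HTSeq and scaled with edgeR's TMM method to CPM on mm10, a signal whose values were whole multiples of 1 read for 100% of entries (tolerance 0.02 reads). The tools are those of the submitters' processing notes, and their versions and the strand setting of the counting were not given in the sources used here. TPM keeps no depth, so no counting interval is given for it. Nothing states separate litters, so p-values measure the spread between these livers.

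Genes averaging 1 TPM or more were fitted on log2(TPM + 1) with limma 3.58.1 in R 4.3.3 (eBayes with trend, 3.62 prior degrees of freedom, two-sided, Benjamini-Hochberg adjustment over 9581 genes). Recovered reads were fitted with edgeR 4.0.16 and DESeq2 1.42.0. Fits were checked on simulated data. Genes overlapping on the opposite strand were counted after the data had been seen. Coordinates came from GENCODE M21 (35126 gene IDs matched) and promoters from RefSeq (GRCm38.p6). The members, lists and motifs were chosen with earlier results of these data known. All 10 members were named, and other genes as relatives, partners, receptors or regulators of a member; 1 gene of these lists is not reported here. The settings varied were the pseudocount (0.1 and 5), the filter (none and 5 TPM), other scalings, no moderation, the CPM table and each library left out.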

Additional observations from a re-analysis of the deposited data

How the results depend on the processing

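No paired analysis was run because no pairing of WT and KO mice was given. An adjusted p under 0.05 was reached by 0 of the 10 members with the other pseudocounts, filters and scalings of TPM. Without moderation 0 of all tested genes passed, so that run could not call a member. On the CPM table only 7 members were fitted, from few reads, and 0 passed. Fits with a library left out have 1 liver in a genotype, so for members only their effect sizes are given below. An unadjusted p under 0.05 was found for 1 gene (*Alb*) with limma on the CPM table and for 1 with edgeR. Among all tested genes the 8 calls became 4 without the filter, 0 without moderation, 1 with limma on the CPM table, 1 with DESeq2 and 0 to 0 with a library left out, and 12 with edgeR on the same reads as DESeq2, 9 with a pseudocount of 0.1, 9 without mitochondrially encoded genes and 6 with a pseudocount of 5. The cause was not tested. For single members, 109 refits kept the sign and 22 changed it. These counts do not measure how stable the signs were. Changing the filter or the moderation leaves a member's log2 fold change as it was, and the pseudocount hardly moves genes at these levels. The counts also include refits on the CPM table, which cannot be read as mRNA levels. Scaled to the upper quartile, log2 fold changes were -0.11 for *Trf*, -0.13 for *Fetub*, -0.068 for *Gc* and -0.044 for *Ambp*. On the CPM table it was 3.15 for *Ttr*, 1.47 for *Rbp4* and -0.54 for *Trf* in limma, 3.13, 2.27 and -0.62 in edgeR and 2.34, 1.26 and -0.66 in DESeq2, from at most 2 reads per library. With each library left out it lay between -0.14 and 0.051 for *Ttr*, -0.091 and 0.15 for *Trf*, -0.16 and 0.17 for *Fetub*, -0.48 and 0.30 for *Hpx*, -0.023 and 0.155 for *Gc*, -0.20 and 0.005 for *Afm*, and -0.10 and 0.28 for *Ambp*. The median of the 10 members lay between -0.13 and 0.045, that of family relatives between -0.30 and -0.019 and that of acute phase genes between -0.48 and 0.22. The difference in summed share kept its sign, from -1.51 to -0.41 percentage points with a library left out. With 2 libraries per genotype the interval of *Alb* reached past a 2-fold difference, and TPM gives no depth.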

Other observations

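Ratios between 2 carriers in the same library do not depend on how libraries are scaled. The ratio of *Ahsg* to *Fetub*, genes that lie side by side on chromosome 16, was 13.7 and 13.5 in the WT livers and 11.4 and 11.6 in the KO livers, so that the livers of a genotype were close together and the genotypes did not overlap. This separation was not particular to the pair. It also held for the next 2 ratios and for others of those computed, such as *Alb* to *Ttr*, while some overlapped, such as *Ambp* to *Itih1*. For *Alb* to *Gc* the ratio was 8.23 and 6.09 in WT and 5.30 and 5.31 in KO. *Hpx* to *Hp*, the carriers of heme and of hemoglobin, gave 1.27 and 1.35 in WT and 2.16 and 1.63 in KO. These ratios were picked after their values had been seen from 13 computed, and with 2 livers per genotype an exact permutation test of any of them cannot go below p = 0.333.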
